A study of Mus musculus with 3 samples.

Results

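Neurexins, neuroligins and LRRTMs are membrane proteins that meet across the synaptic cleft, and 9 genes of these 3 families were followed by symbol: Nrxn2 and Nrxn3, Nlgn1, Nlgn2 and Nlgn3, and Lrrtm1, Lrrtm2, Lrrtm3 and Lrrtm4. They were found by joining the transcript identifiers of the ribosome profiling tables to gene symbols on mm10, which placed all 9 among 20823 genes with a CDS and UTRs on both sides. The genes were chosen by family and not by a threshold on a measured value, and each gene was read on its longest transcript.

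Ribosome profiling sequences footprints, the stretches of mRNA that a ribosome shields from digestion. Mouse primary cortical neurons were left without drug (WT), given cycloheximide for 2 min (Chx), or given harringtonine for 2 min and then a cycloheximide pulse (Harr). Cycloheximide stops elongating ribosomes, whereas harringtonine stops ribosomes that have just initiated and lets those farther along run off. All libraries, WT included, came from 3 pooled dishes and from lysates prepared in buffer with 100 μg per ml cycloheximide, so no library was free of that drug. Genotype, sex and age in culture were not given in the labels. With 1 library per treatment, no difference has a replicate check. No p-value is given, and all intervals are 95% intervals that cover counting error only.

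The aligned reads numbered 35722483 for Chx, 9754412 for Harr and 30219197 for WT, so that Harr is the least precise. The cells were neuronal by their markers: 8 neuronal markers together had 4020 to 4970 CDS reads per 1000000 aligned reads, against 78.8 to 213 for 4 astrocyte markers, 2.15 to 6.52 for 4 oligodendrocyte markers (Mobp and Mog at 0 in every library), 0.513 to 1.62 for 4 microglial markers and 11.9 to 14.0 for 4 stromal markers. Every marker set was lowest in Harr, as was the CDS of all genes summed (387000 reads per 1000000, against 566000 in Chx and 552000 in WT). Their part in the results was not tested. In such bulk libraries a smaller share of a cell type and fewer footprints per cell cannot be told apart.

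Neurexins are presynaptic adhesion receptors. Each gene gives a long form from an upstream promoter and a short form from an internal promoter, and alternative splicing of both changes which ligands they bind. Neuroligins and LRRTMs are their postsynaptic ligands: neuroligins bind through a domain related to acetylcholinesterase, and LRRTMs through leucine-rich repeats. Nlgn1 is associated with excitatory and Nlgn2 with inhibitory synapses, while Nlgn3 occurs at both.

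The start codons are shown first, since they are where harringtonine holds ribosomes and since the neurexin forms differ there. Each line has 12 bases before the start codon, the ATG in capitals and 15 bases after it, 5′ to 3′, from GENCODE M21 transcripts on mm10. Lrrtm2 is not shown.
Nrxn2 long form, chromosome 19, ATG at 6428049, plus strand: gccgccggaggcATGgcgctcgggagtcgg
Nrxn2 short form, chromosome 19, ATG at 6498279, plus strand: ccccgggccgagATGccccccggggggagc
Nrxn3 long form, chromosome 12, ATG at 88795185, plus strand: ccagcaggcaccATGagctttaccctccac
Nrxn3 short form, chromosome 12, ATG at 89813400, plus strand: agtgcgttgaccATGcacctgagaatccac
Nlgn1, chromosome 3, ATG at 26133734, minus strand: taatgtgggaccATGgcacttcccagatgc
Nlgn2, chromosome 11, ATG at 69834438, minus strand: cccccaatcagcATGtggctcctggcgttg
Nlgn3, chromosome X, ATG at 101301984, plus strand: cctgcccggaacATGtggctgcagccctcg
Lrrtm1, chromosome 6, ATG at 77243562, plus strand: agattctcgctaATGgatttcctgctactc
Lrrtm3, chromosome 10, ATG at 64089713, minus strand: acaatacaaaggATGggtttcaatgtaatt
Lrrtm4, chromosome 6, ATG at 80019180, plus strand: gcacaataaggaATGccaggtttccgtcta

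A purine before the ATG together with a G after it (ANNATGG or GNNATGG, read on the coding strand) was present at the starts of long Nrxn2, Nlgn1, Lrrtm2 and Lrrtm3, and at 41.0% of 20639 genes with an ATG start. The short Nrxn2 start and both Nrxn3 starts lacked it. Every member also had ATGs inside its 5′ UTR. Their number was 4 in long Nrxn2, 3 in short Nrxn2, 4 in long and 7 in short Nrxn3, 27 in Nlgn1, 3 each in Nlgn2 and Nlgn3, 5 in Lrrtm1, 6 in Lrrtm2, 11 in Lrrtm3 and 2 in Lrrtm4. Over all genes the median was 1, and 55.4% had at least 1. The member 5′ UTRs ran from 132 nt (Lrrtm4) to 1852 nt (Nlgn1), and 8 of the 9 were longer than the all-gene median of 177 nt. In Lrrtm2 and Lrrtm3 the first coding segment was only 4 nt long, and in Lrrtm4 7 nt, before an intron; these segments had 0 reads in every library, and all CDS reads of these genes lie in later segments.

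The first question was how strongly each gene was translated, given as CDS level in RPKM (reads per kilobase of CDS and per 1000000 aligned reads). Nrxn2 had 48.1 RPKM in Chx, 40.2 in Harr and 40.1 in WT, from 8779, 2005 and 6192 CDS reads. Nrxn3 had 43.0 RPKM in Chx, 47.2 in Harr and 41.3 in WT, from 7252, 2171 and 5888 reads. Nrxn3 was the only member whose level was highest in Harr on this scale.

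Among the neuroligins, Nlgn3 had 48.7 RPKM in Chx, 33.1 in Harr and 40.2 in WT. Nlgn2 had 31.4 RPKM in Chx, 22.2 in Harr and 23.6 in WT. Nlgn1 had 11.3 RPKM in Chx, 9.19 in Harr and 9.33 in WT. Nlgn3, which is X-linked, thus had the highest level of its family in every library and Nlgn1 the lowest. The coding exons of Nlgn3 also lie inside a longer noncoding transcript annotated on the same strand (Gm21986), and reads of both cannot be told apart there.

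Among the LRRTMs, Lrrtm1 was the highest in every library, with 32.6 RPKM in Chx, 25.7 in Harr and 23.0 in WT. Lrrtm2 had 13.7 RPKM in Chx, 8.48 in Harr and 15.0 in WT. Lrrtm4 had 8.97 RPKM in Chx, 7.36 in Harr and 9.91 in WT. Lrrtm3 was the lowest of all 9 members in every library, with 4.53 RPKM in Chx, 3.17 in Harr and 3.71 in WT, from 283, 54 and 196 reads. In WT the levels ran in the order Nrxn3, Nlgn3, Nrxn2, Nlgn2, Lrrtm1, Lrrtm2, Lrrtm4, Nlgn1 and Lrrtm3. The counting intervals overlapped among Nrxn3, Nlgn3 and Nrxn2, between Nlgn2 and Lrrtm1 and between Lrrtm4 and Nlgn1, so the order within these sets was not resolved. Among the 12980 genes with at least 10 CDS reads in WT, the members stood between the 30.2th percentile (Lrrtm3) and the 81.8th percentile (Nrxn3).

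**Figure D1:**
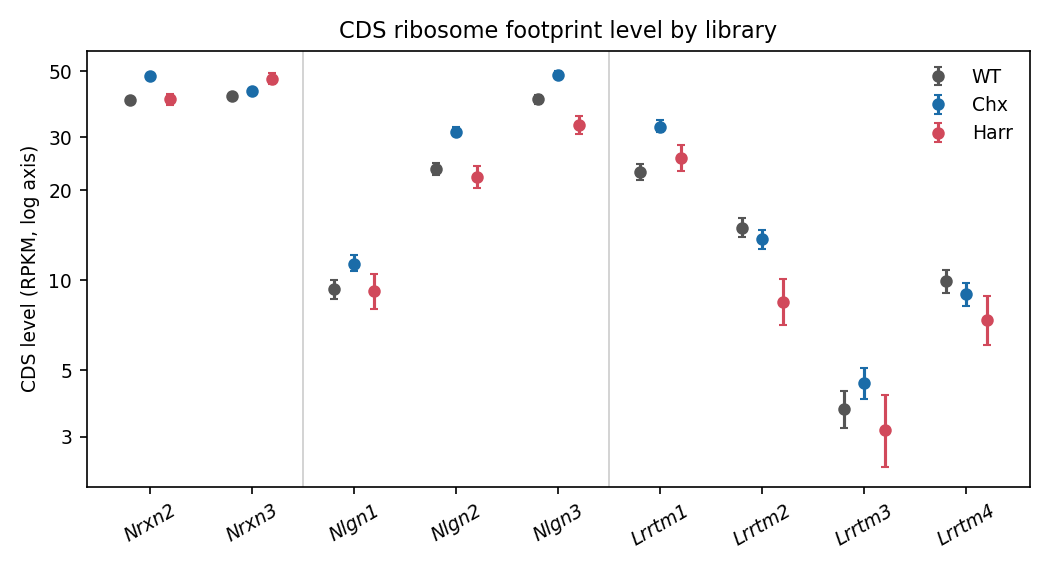
CDS level of each member in RPKM (log axis) in the WT (grey), Chx (blue) and Harr (red) libraries, with exact Poisson 95% intervals; vertical lines separate neurexins, neuroligins and LRRTMs. The levels range from 3.17 (Lrrtm3 in Harr) to 48.7 RPKM (Nlgn3 in Chx), and only Nrxn3 has its highest value in Harr.

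By family, the neurexins had 449 CDS reads per 1000000 aligned reads in the Chx library, 428 in the Harr library and 400 in the WT library. The neuroligins had 231, 163 and 185, and the LRRTMs 94.3, 70.4 and 81.3, in the same order of libraries. Neurexin CDSs are also the longest, so these sums compare the number of reads and not levels.

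To compare treatments, CDS reads were scaled to the CDS reads of all genes, and a gene was called when the log2 ratio was at least 1 in size with a counting interval that excluded 0. None of the 9 members was called in any pair of libraries. Over 11459 genes, 4.63% were called higher and 13.7% lower in Harr than in Chx, 5.30% higher and 14.3% lower in Harr than in WT, and 0.201% higher and 0.122% lower in Chx than in WT. Between Harr and Chx the log2 ratios ran from −0.14 ± 0.14 (counting SE, as below; Lrrtm2) to 0.68 ± 0.04 (Nrxn3), with a median of 0.20 against −0.05 for all genes. The ratio followed CDS length over all genes, from a median of −0.68 in the class of shortest CDSs to 0.66 in that of 4000 nt and more. Against genes of its own length class Nrxn3 stood at the 53.0th percentile, whereas Nrxn2, at 0.29 ± 0.04, stood at the 12.7th. Between Chx and WT the ratio was 0.47 ± 0.06 for Lrrtm1 and 0.38 ± 0.04 for Nlgn2, at the 95.4th and 92.6th percentiles of their length classes. It was −0.17 ± 0.08 for Lrrtm2, −0.18 ± 0.09 for Lrrtm4 and 0.02 ± 0.03 for Nrxn3, and for Lrrtm3 it was 0.25 ± 0.13. Scaled to aligned reads instead, every ratio between Harr and Chx was lower by 0.55, and only that of Nrxn3 stayed above 0, at 0.13.

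Next, the place of the footprints within each mRNA was examined. A read was counted where its 5′ end lies, so that a ribosome stopped at the annotated start codon contributes to the 5′ UTR, together with ribosomes farther upstream. In WT, the 5′ UTR held 13.3% of the reads of Nrxn2, 14.5% of Nrxn3, 33.1% of Nlgn1, 44.9% of Nlgn2, 17.2% of Nlgn3, 37.4% of Lrrtm1, 33.1% of Lrrtm2, 40.8% of Lrrtm3 and 14.5% of Lrrtm4. All 9 shares were above that of all genes summed, 6.14%. Among 10416 genes with at least 100 reads, they lay from the 79.9th (Nrxn2) to the 97.9th percentile (Nlgn2).

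In Chx the 5′ UTR share was lower than in WT for every member, from 10.2% (Nrxn3) to 40.4% (Nlgn2). For all genes summed it was higher in Chx, at 8.71%. In Harr it rose to 35.3% for Nrxn2, 19.5% for Nrxn3, 56.3% for Nlgn1, 68.5% for Nlgn2, 44.4% for Nlgn3, 57.4% for Lrrtm1, 70.2% for Lrrtm2, 52.0% for Lrrtm3 and 31.5% for Lrrtm4, with 33.5% for all genes. The Lrrtm2 5′ UTR thus held more reads than its CDS in Harr, 315 against 128, but fewer in Chx, 318 against 758. The same crossing occurred in Nlgn1, Nlgn2 and Lrrtm1. In Lrrtm3 the Harr counts were 65 against 54, and the interval of the share (43.3% to 60.6%) did not resolve a crossing.

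**Figure D2:**
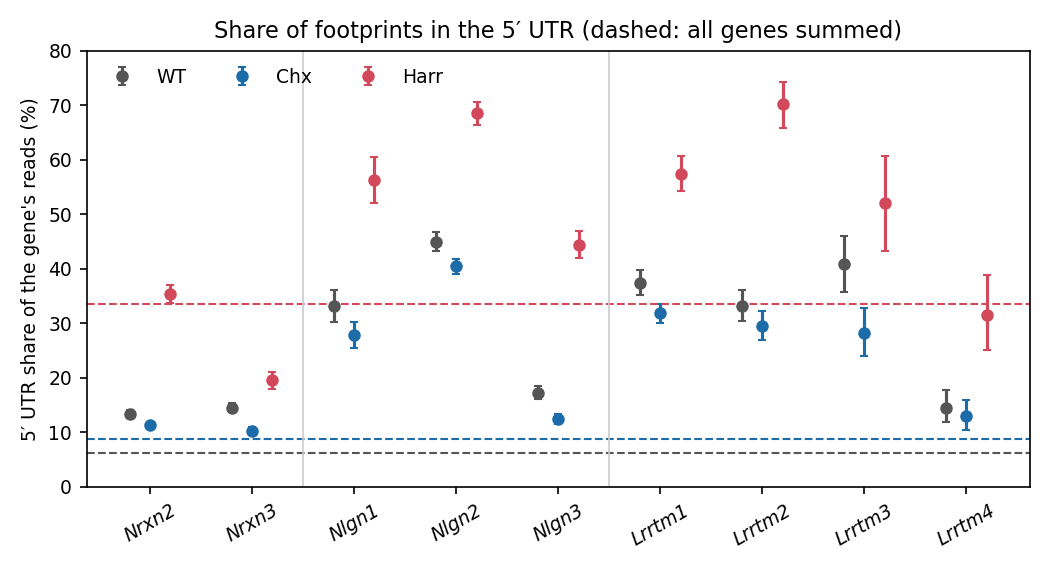
Share of each member's reads that lie in the 5′ UTR, in percent, in WT (grey), Chx (blue) and Harr (red), with Wilson 95% intervals; dashed lines give all genes summed in the same colours. Harr is highest for each member, from 19.5% (Nrxn3) to 70.2% (Lrrtm2), and Chx lies below WT for each member although the dashed lines have the opposite order.

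Within genes, the change was expressed as a log2 odds ratio, the 5′ UTR:CDS ratio of one library over that of the other, called at a size of at least 1 with an interval that excluded 0 and at least 10 5′ UTR reads in the pair. Between Harr and Chx all 9 members were called higher in Harr, where 88.8% of 10806 genes were. Their values ran from 1.10 ± 0.09 (Nrxn3) to 2.55 ± 0.18 (Lrrtm2). The member median of 1.70 lay below the all-gene median of 2.46, and only Nlgn3 (2.51 ± 0.10) and Lrrtm2 were above the latter.

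Between Harr and WT, 7 of the 9 members were called higher in Harr, where 93.7% of 10384 genes were. The exceptions were Nrxn3, with 0.51 ± 0.09, and Lrrtm3, with 0.74 ± 0.31. The highest value was 2.30 ± 0.18 (Lrrtm2), so that all 9 lay below the all-gene median of 3.23. The member median was 1.43. Genes with a WT 5′ UTR share in the members' range, 13.3% to 44.9%, had medians of 2.36 (Harr against Chx) and 2.62 (Harr against WT), both nearer to the members than those of all genes. Choosing genes by a high WT share tends by itself to lower their ratios to WT, so the Harr against WT value is no independent comparison.

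Between Chx and WT no member was called, where 30.2% of 10483 genes were higher and 1.09% lower in Chx. All 9 log2 odds ratios were nevertheless below 0, from −0.19 ± 0.25 (Lrrtm4) to −0.86 ± 0.23 (Lrrtm3), with a median of −0.36. The interval excluded 0 for 7 of them and included it for Lrrtm2 and Lrrtm4. Over all genes the median was 0.67, and 19.3% of 10430 genes were below 0. The genes with a 5′ UTR share in the members' range were again nearer to the members, with a median of 0.27 and 31.3% of 1462 genes below 0. Since WT is in this ratio too, the choice by WT share again tends to lower it, and by how much was not tested. The comparisons with Chx share the same Chx library, and those with WT the same WT library.

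**Figure D3:**
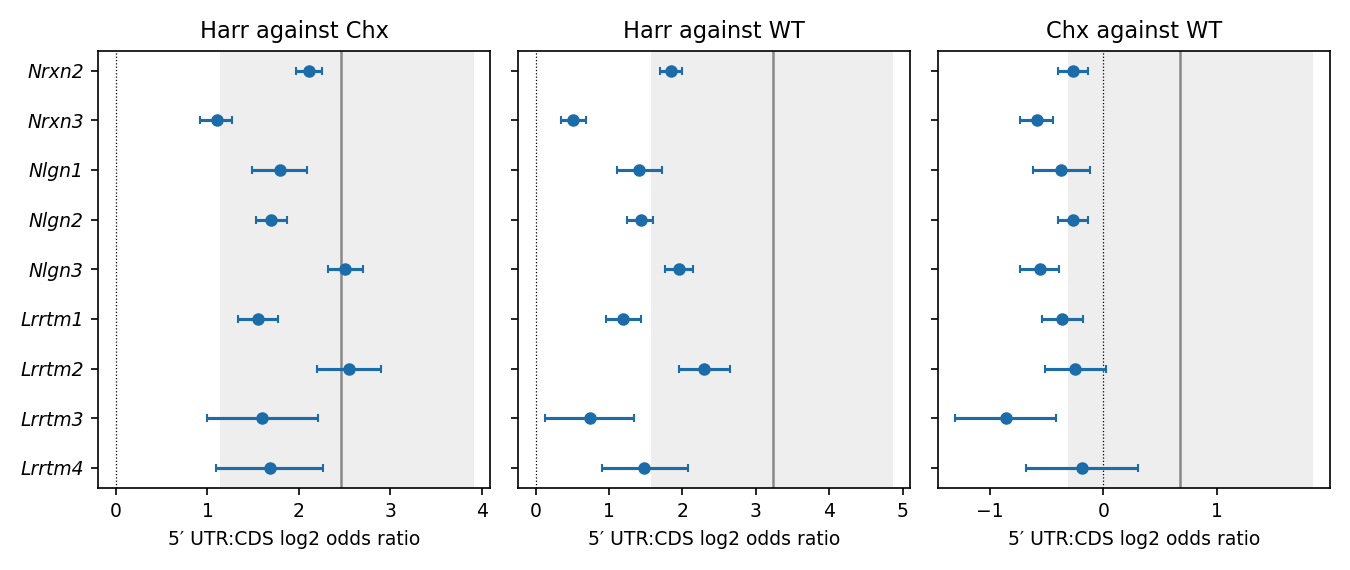
5′ UTR:CDS log2 odds ratio for each member in the 3 pairs of libraries, with 95% counting intervals; the grey line is the median of all genes, the grey band their 10th to 90th percentile, and the dotted line 0. The member medians are 1.70 (Harr against Chx), 1.43 (Harr against WT) and −0.36 (Chx against WT), each to the left of the grey line.

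In 5 members part of the 5′ UTR lies in an exon upstream of the one with the start codon, where a footprint at the start codon is not counted unless it spans the junction. There the Harr against Chx log2 odds ratio was 2.29 ± 0.10 for Nrxn2, 1.81 ± 0.20 for Nlgn1, 2.02 ± 0.09 for Nlgn2, 2.34 ± 0.13 for Nlgn3 and 1.51 ± 0.12 for Lrrtm1. Each was above 0 beyond counting error, and each was below the median of 3376 genes, 2.38, which the intervals of Nrxn2 and Nlgn3 included. The rise in Harr was therefore not limited to the exon that holds the start codon.

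The neuroligins differed in how their 5′ UTR reads were divided between exons. In Nlgn2 the upstream exon (chromosome 11, 69837048 to 69837784) held 60.7% (Chx), 75.6% (Harr) and 56.3% (WT) of 5′ UTR reads. In Nlgn3 the upstream exon (chromosome X, 101299194 to 101299296, 103 nt) had 333 (Chx), 313 (Harr) and 166 (WT) reads, and the start codon exon had 292, 349 and 477 5′ UTR reads. The upstream exon of Nlgn3 thus held 53.3% (Chx) and 25.8% (WT) of them. In Nlgn1 the first 2 of its 3 exons held together fewer reads than the third in every library, and the third had at least 57.6%.

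Relative to CDS reads, the upstream exon of Nlgn3 gave a Chx against WT log2 odds ratio of 0.48 ± 0.14, although its whole 5′ UTR gave −0.56 ± 0.09. For Nrxn2, Nlgn2 and Lrrtm1 the upstream exon was lower in Chx, between −0.33 ± 0.10 (Lrrtm1) and −0.16 ± 0.08 (Nlgn2), and for Nlgn1, at −0.28 ± 0.18, the interval included 0. The median of 3237 genes was 0.68, so Nlgn3 had the direction of most genes and the other four the opposite one. Its start codon exon, unlike its upstream exon, is also part of Gm21986, and the part of that transcript in the value was not tested.

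The tables give reads per exon segment, so the course of run-off could be followed along the CDSs of the neurexins and neuroligins. In long Nrxn2 the first coding segment (730 nt) had 2025 (Chx), 118 (Harr) and 1151 (WT) reads. In long Nrxn3 the first coding segment (709 nt) had 1500, 69 and 1010 reads. Scaled to CDS reads, these segments were lower in Harr than in Chx by log2 ratios of −1.67 ± 0.14 and −2.01 ± 0.18. From a midpoint of about 1140 nt onward the ratio was above 0 in most segments, for example 1.34 ± 0.17 in segment 14 of Nrxn2 and 1.43 ± 0.11 in segment 8 of Nrxn3, and the last segments had 0.68 ± 0.11 and 1.29 ± 0.11.

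In the neuroligins the first coding segment was lower in Harr than in Chx by log2 ratios of −1.50 ± 0.31 (Nlgn1), −0.88 ± 0.17 (Nlgn2) and −1.43 ± 0.13 (Nlgn3). The last segment was higher, by 1.14 ± 0.15, 0.85 ± 0.10 and 0.86 ± 0.09. In Nlgn2 the lowest ratio was in the third segment, at −1.67 ± 0.37, from 281 reads in Chx and 16 in Harr. Scaled to aligned reads all these segment ratios would be 0.55 lower, whereas the comparison of near with far segments made next does not depend on the scaling. The LRRTMs could not be followed in this way, since nearly the whole CDS of each is 1 segment, except that Lrrtm3 has a last segment of 210 nt with 42 (Chx), 11 (Harr) and 42 (WT) reads.

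Segments with midpoints within 1200 nt of the start codon were then set against those beyond. The near-to-far log2 odds ratio between Harr and Chx was −1.84 ± 0.07 for the neurexins and −1.63 ± 0.09 for the neuroligins. The median of 4502 genes, not matched for CDS length, was −1.38. By gene it was −1.51 ± 0.09 for Nrxn2, −2.24 ± 0.12 for Nrxn3, −1.77 ± 0.26 for Nlgn1, −1.50 ± 0.14 for Nlgn2 and −1.69 ± 0.12 for Nlgn3. The Nrxn3 interval overlapped that of Nlgn1, and between Harr and WT both genes had close values, −1.86 ± 0.12 and −1.88 ± 0.26. With the boundary at 900 nt the neurexin value was −2.55 and the neuroligin value −1.63, with a median of −1.29 over 5779 genes. Between Chx and WT the neurexins had 0.26 ± 0.04, with more reads near the start in Chx, and the neuroligins −0.01 ± 0.05, with a median of 0.02 over 4802 genes.

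**Figure D4:**
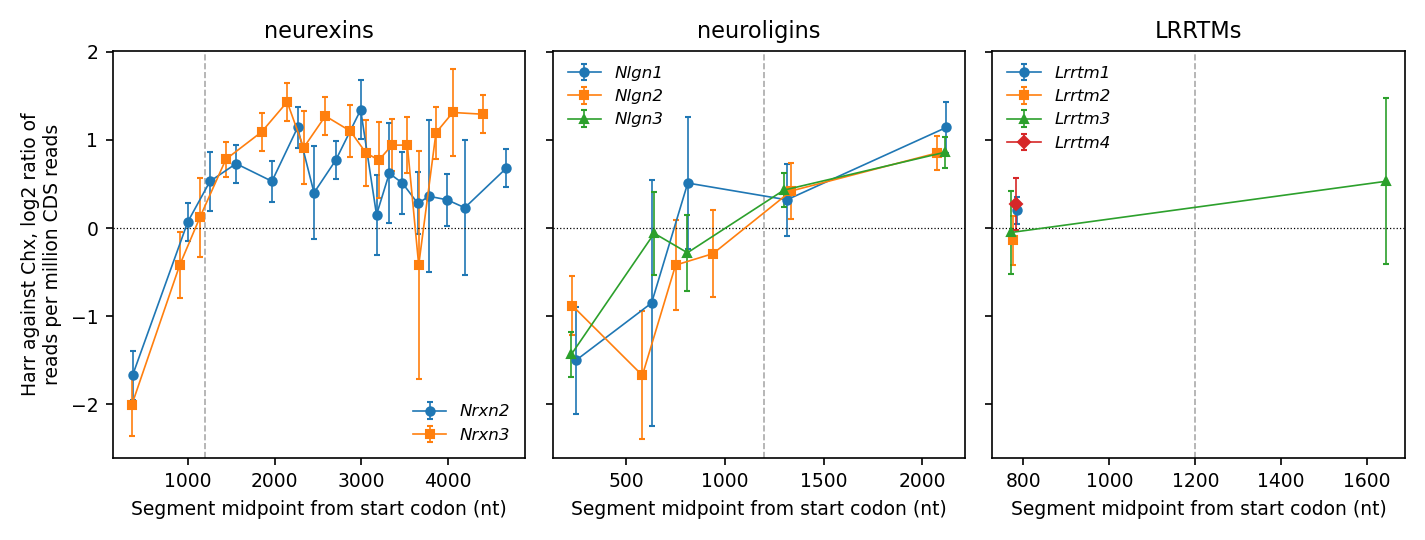
Log2 ratio of Harr against Chx (reads per 1000000 CDS reads) for each coding segment of at least 60 nt with at least 40 reads in the pair, by distance of its midpoint from the start codon in nt; bars are 95% counting intervals and the dashed line is 1200 nt. Neurexin and neuroligin segments rise from −2.01 to −0.88 in the first segment to 0.68 to 1.29 in the last, while LRRTMs have 1 or 2 segments.

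The long and short forms of the neurexins could be told apart at their starts, since the short form begins in an exon inside an intron of the long one. The short 5′ UTR of Nrxn2 (451 nt) had 692 (Chx), 591 (Harr) and 527 (WT) reads, and the long 5′ UTR (486 nt) had 1119, 1105 and 952. Per nucleotide, the short 5′ UTR had 0.666, 0.576 and 0.597 times the density of the long one. In Nrxn2 this ratio thus varied little between libraries, with intervals that overlapped.

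In Nrxn3 the short 5′ UTR (917 nt) had 381 (Chx), 461 (Harr) and 482 (WT) reads, against 825, 528 and 1004 in the long 5′ UTR (681 nt). Its density was 0.343 times that of the long 5′ UTR in Chx (0.304 to 0.387) and 0.357 times in WT (0.320 to 0.397), but 0.648 times in Harr (0.572 to 0.735). Within the gene, the short 5′ UTR as a whole therefore gained more footprints in Harr than the long one. Read against their own first coding segments, the log2 odds ratio between Harr and Chx was 4.75 ± 0.59 for the short and 3.79 ± 0.19 for the long start, with overlapping intervals. For Nrxn2 it was 1.91 ± 0.36 for the short and 4.08 ± 0.15 for the long start, with intervals that did not overlap.

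The first coding segments of the short forms had few reads. That of Nrxn2 (253 nt) had 90 in Chx, 20 in Harr and 82 in WT, and that of Nrxn3 (241 nt) had 144, 6 and 106. Their density was 0.128, 0.489 and 0.206 times that of the first coding segment of the long form for Nrxn2, and 0.282, 0.256 and 0.309 times for Nrxn3. In WT and Chx the coding start of the short form was thus covered less than that of the long form in both genes. In Chx this was more marked in Nrxn2 (0.104 to 0.158) than in Nrxn3 (0.238 to 0.335). In WT the intervals overlapped slightly (0.164 to 0.257 and 0.253 to 0.377).

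Downstream of the internal start, coding segments belong to both forms. For Nrxn2 their density, as a multiple of that of the long-only segments, was 0.603 (Chx), 0.719 (Harr) and 0.615 (WT), and for Nrxn3 it was 0.654, 0.955 and 0.780. Genes with a CDS of like length, divided at the same fraction, had medians of 0.658, 0.910 and 0.626 for the Nrxn2 division, at which Nrxn2 stood between the 31.5th and the 47.7th percentile. For the Nrxn3 division they were 0.657, 0.921 and 0.635, with Nrxn3 between the 48.6th and the 68.6th percentile. In WT the Nrxn3 value (0.736 to 0.827) was above the median of its like genes. On constant segments alone the Nrxn2 value was 0.783 (Chx), 0.849 (Harr) and 0.820 (WT), but these leave 759 of 1730 shared nt and have no counterpart among the like genes. Most of what was left out is the 881-nt last coding segment. In WT it had 0.593 reads per nt, against 0.857 for all shared segments.

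**Figure D5:**
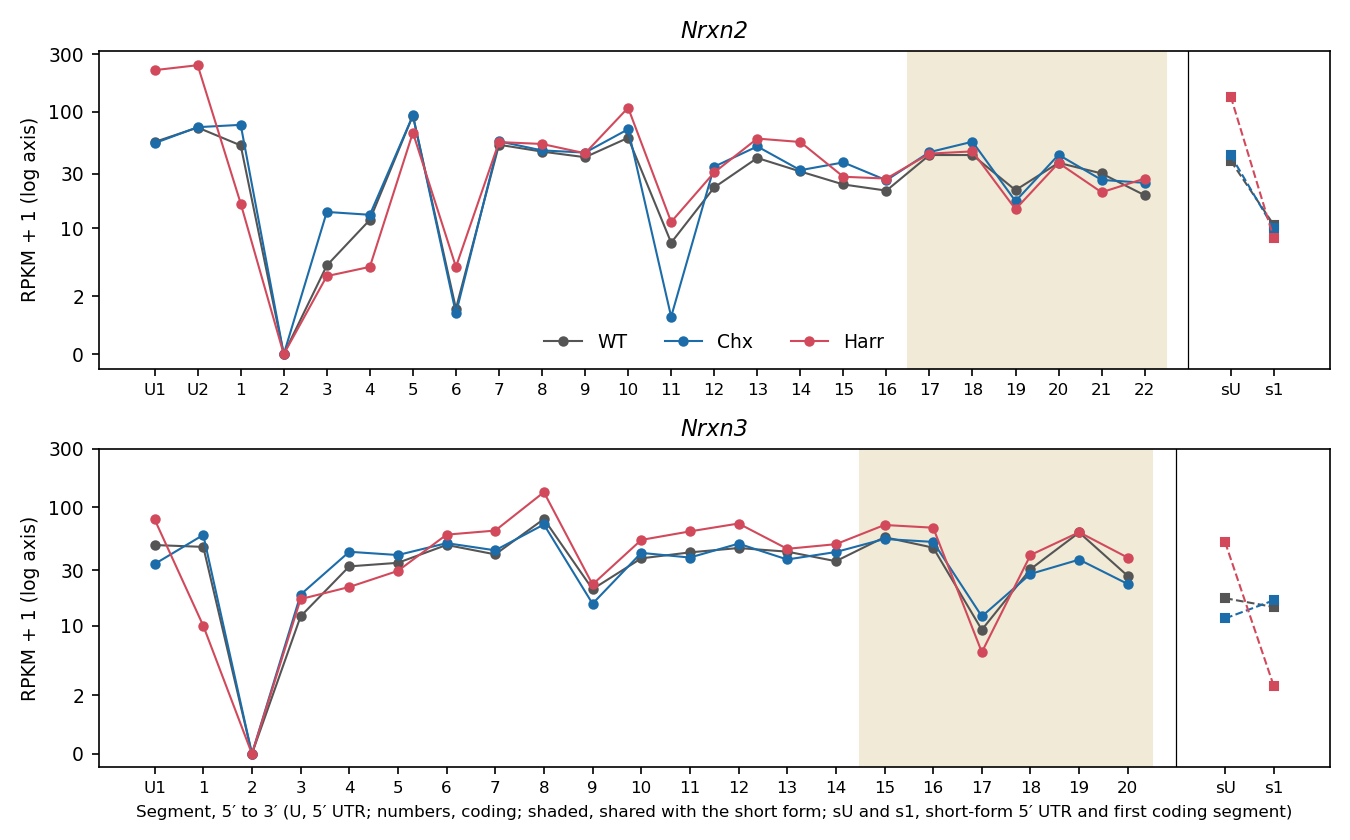
RPKM plus 1 (log axis) of each segment of Nrxn2 and Nrxn3 in WT (grey), Chx (blue) and Harr (red), 5′ to 3′; U marks 5′ UTR segments, numbers the coding segments of the long form, shading those shared with the short form, and squares the short-form 5′ UTR (sU) and first coding segment (s1). In Harr the long 5′ UTR segments stand at 222 and 244 RPKM in Nrxn2 and 79.5 in Nrxn3, the first coding segments fall to 16.6 and 9.98, and short segments dip in all libraries.

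Alternatively spliced segments were compared with the nearest constant segments of at least 100 nt on both sides. A 90-nt segment in the shared part has the length of the exon known as splice site 4, whose inclusion changes the binding of neuroligins and LRRTMs. In Nrxn2 (chromosome 19, 6513716 to 6513805) it had 56 (Chx), 13 (Harr) and 59 (WT) reads. Its density was 0.364, 0.367 and 0.552 times that of its neighbours. In Nrxn3 (chromosome 12, 90199147 to 90199236) it had 39, 5 and 25 reads, at 0.332, 0.113 and 0.253 times. Constant segments of like length in other genes had medians of 0.802, 0.693 and 0.789, so the segment was covered less than most of these in both genes.

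In WT the relative density of this segment was higher in Nrxn2 (0.423 to 0.722) than in Nrxn3 (0.169 to 0.378). In Chx, the deepest library, the intervals overlapped almost wholly (0.278 to 0.477 and 0.240 to 0.459), and in Harr they overlapped as well, so the genes were not told apart by this segment in 2 of the 3 libraries. A 72-nt alternative segment near the start of Nrxn2 (chromosome 19, 6450528 to 6450599) had 34 (Chx), 3 (Harr) and 26 (WT) reads, at 0.161, 0.137 and 0.186 times its neighbours, where like constant segments had 0.699, 0.601 and 0.710. Alternative segments of 24 to 30 nt had 1 to 17 reads each, and since constant segments of that length also had low densities, nothing was read from them.

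The 3′ UTR, which follows the stop codon, held few reads of the members: 52 of 33964 in Chx (0.153%), 73 of 11295 in Harr (0.646%) and 88 of 25860 in WT (0.340%). Genes whose UTRs overlap no CDS, as is true of all 9 members, had 0.602%, 3.17% and 1.02%. The sum over the 9 members was below these in each library, but the share of Lrrtm3 was above them in Harr (4.80%, 2.22 to 10.1, from 6 reads) and in WT (2.60%, 1.37 to 4.87, from 9 reads), in Harr within counting error. No single member had more than 28 reads (Nrxn2 in WT). Lrrtm4 had 0 of 546 in WT, which at 3 counts of the total allows a share of up to 0.549%. In Harr the LRRTMs together reached 1.31% (0.865 to 1.97), from 22 reads. The shares rest on the transcript used, since Nrxn3 has a nonsense-mediated decay transcript whose annotated 3′ UTR covers 623 nt that are coding in other transcripts. Lrrtm1 was itself read on a transcript annotated as nonsense-mediated decay, with a 3′ UTR in 2 segments.

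A wider list of 64 genes, namely 14 other neurexin ligands, 37 other synaptic organisers and 13 intracellular partners (scaffolds, and the vesicle protein Syt1), was read in the same way. In the 5′ UTR:CDS ratio, 58 of 61 genes with enough reads were called higher in Harr than in Chx and none lower, with a median of 2.22, where 88.8% of all genes were higher. The 3 others were Tenm4, Mdga2 and Dlg3, with values from 0.50 ± 0.18 (Dlg3) to 0.86 ± 0.13 (Mdga2). Between Harr and WT 56 of 61 were higher and none lower, with a median of 2.46, where 93.7% of all genes were higher. Between Chx and WT 7 were higher and 1 was lower, with a median of 0.18, where 30.2% of all genes were higher and 1.09% lower. In all 3 pairs the median of this list, like that of the members, was below that of all genes.

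By group, the median between Chx and WT was 0.16 for the other ligands, 0.04 for the organisers and 0.50 for the intracellular partners. The gene called lower was Cbln2, a secreted linker between neurexins and glutamate delta receptors, with −1.19 ± 0.36. Dlg4, which encodes the scaffold PSD-95, had the highest value, 2.71 ± 0.56, from 60 (Chx) and 7 (WT) 5′ UTR reads on a transcript with a CDS of only 822 nt, followed by the adhesion molecule Cadm4 with 2.48 ± 0.38. Dlg2 had the lowest, −3.70 ± 2.12, but with only 0 (Chx) and 6 (WT) reads in its 5′ UTR it was not called. The 3 most translated genes of each group in WT were Clstn3 (183 RPKM), Clstn1 and Nxph1 among the ligands, Cadm2 (215 RPKM), Cadm3 and Cadm4 among the organisers, and Syt1 (344 RPKM), a calcium sensor of synaptic vesicles, Lin7c and Apba1 among the intracellular partners. Of these 9, 7 were above 0 between Chx and WT, from 0.40 ± 0.07 (Nxph1) to that of Cadm4, with 1.01 ± 0.09 for Cadm2, 1.01 ± 0.13 for Cadm3, 0.87 ± 0.11 for Clstn1, 0.67 ± 0.11 for Apba1 and 0.53 ± 0.14 for Lin7c. Syt1 was below 0, at −0.42 ± 0.05, and Clstn3 had −0.04 ± 0.06, an interval that includes 0.

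In the CDS ratio between Harr and Chx, 3 of the 64 genes were called higher and 5 lower, where 4.63% of all genes were higher and 13.7% lower. These calls depended on the scaling: per 1000000 aligned reads 0 were higher and 12 lower, where 0.559% and 31.2% of all genes were. With median-of-ratios factors 6 were higher, where 5.84% of all genes were. The 5 lower ones were the ligands Cbln1 (−2.62 ± 0.57), Cbln2 (−1.09 ± 0.26), Cbln4 (−1.02 ± 0.31) and Nxph3 (−1.54 ± 0.42) and the scaffold Lin7c (−1.71 ± 0.11), all with a CDS of 582 to 759 nt. The 3 higher ones, Tenm3 (1.11 ± 0.04), Mdga2 (1.38 ± 0.07) and Magi2 (1.05 ± 0.07), had CDSs of 3078 nt or more. Mdga2 encodes a neuroligin-binding membrane protein. Between Harr and WT Ptprd, Slitrk2, Tenm3 and Mdga2 were higher, up to 1.54 ± 0.07 (Mdga2), and Cbln1, Adgrl3 and Lin7c were lower, down to −2.48 ± 0.58 (Cbln1). Of all genes, 5.30% were higher and 14.3% lower in that pair. Adgrl3 was read on a CDS of only 204 nt. With the most read transcript, or with 5 added to each count, 2 genes of the list were lower. All genes then had 14.1% and 11.2% lower. Between Chx and WT none was called, the highest being Nxph3 with 0.99 ± 0.19.

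Over the 3 libraries, the genes whose log2 CDS RPKM lay nearest to that of the most read member of each family, among 11459 genes, were Brinp1 and Copb1 for Nrxn2 (distances of 0.015 and 0.032), Fam213a and Retreg2 for Nlgn3 (0.081 and 0.088) and Mars and Txnrd1 for Lrrtm1 (0.045 and 0.098).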

How the data were processed

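Per the file headers, the authors deposited Plastid tables of counts (whole reads per exon segment), of coverage signal (counts per nucleotide) and of RPKM for the 5′ UTR, CDS and 3′ UTR of 3 libraries, with reads of 25 to 100 nt placed by their 5′ end on mm10 after ribosomal reads and duplicates had been removed. The study's methods name Rsubread for one of its ribosome profiling workflows and TopHat for another, and which of them gave these tables is not stated there. Only counts were used, and RPKM was recomputed from them and the header totals. Identifiers were joined to GENCODE M21 (99.4% of 142446 matched without version), segments were summed over the longest transcript, and 0.5 was added to each count in log2 ratios (Python 3.11.15, pandas 2.3.3, scipy 1.17.1). CDS ratios used genes with at least 100 CDS reads. A count of 0 allows up to 3 counts, which is 0.0840 (Chx), 0.308 (Harr) and 0.0993 (WT) reads per 1000000. Intervals were Wilson, exact Poisson or log2 odds ratio intervals. On simulated Harr and Chx counts, 95.5% of 200 genes changed 4-fold were called in the 5′ UTR:CDS ratio, with 153 false calls among 9778 unchanged genes, and 100.0% in the CDS ratio, with 26 among 11250. Changed genes had at least 200 5′ UTR and CDS reads in each library or, for the CDS ratio, 100 CDS reads in Harr. Lrrtm3 and Lrrtm4 fall short of the first minimum in Harr, and Lrrtm3 also of the second. Only counting noise was simulated, without the shift of most genes seen in Harr, so these rates do not cover such a shift. Named were all members, and among partners the 3 highest WT levels per group, the extremes of each pair, and other called genes named after their values were seen. Members and lists were chosen with earlier results of these data known. The alternatives were another transcript, scaling, pseudocount, minimum, position boundary and segment set.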

Additional observations from a re-analysis of the deposited data

How the results depend on the processing

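No paired analysis was possible because each treatment has 1 library. For the same reason no library could be left out. The counts of members past 2-fold were the same under each alternative for both ratios, and all 9 members kept a 5′ UTR:CDS log2 odds ratio below 0 between Chx and WT with another transcript (−0.86 to −0.25) and with 5 added (−0.84 to −0.19). Scaling per 1000000 aligned reads instead of CDS reads shifted every CDS ratio by −0.55 between Harr and Chx and by −0.51 between Harr and WT. The partner list then had 0 genes higher and 12 lower between Harr and Chx, where all genes had 0.559% higher and 31.2% lower. Between Harr and WT it had 1 higher and 11 lower, where all genes had 0.681% and 29.0%. Between Chx and WT it had 1 higher, where all genes had 0.253%. Median-of-ratios scaling gave 6 partner genes higher between Harr and Chx, where 5.84% of all genes were. Adding 5 gave 3 lower, where 10.4% of all genes were. With the most read transcript, which changed Nrxn3 and Lrrtm4, the 3′ UTR share of the members was 1.69% (Chx), 2.75% (Harr) and 2.35% (WT), since the Nrxn3 3′ UTR then covers coding bases. At 900 nt the near-to-far values of the neurexins were −2.55 (Harr against Chx), −2.18 (Harr against WT) and 0.37 (Chx against WT). The medians of all genes at this boundary were −1.29, −1.29 and 0.02. On constant segments only, which leave out the 881-nt last coding segment, the shared to long-only density of Nrxn2 was 0.783 (Chx), 0.849 (Harr) and 0.820 (WT). Without a minimum of reads, 49.2% of genes were higher in Harr than in Chx in the 5′ UTR:CDS ratio. Harr, with the fewest reads, limits the precision of Lrrtm3 and Lrrtm4 most.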
